A study of Mus musculus and synthetic construct with 15 samples.

Results

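The regions described here are 249 of the 3820 sequences in an enhancer reporter library. Each carries the single tag p300AVB in its identifier and is placed in the category "spMTF or spP300" by the submitters' table, and both names are used as given. The test bed was the heart of wild-type mice and the method a massively parallel reporter assay (MPRA), in which every candidate sequence is carried by an adeno-associated virus (AAV9) and the RNA read from it is set against its amount in the virus DNA. The virus pool was given on postnatal day 0 and the hearts were taken on postnatal day 7. The 3 groups of 5 libraries were atrial RNA and ventricular RNA, both labeled as coming from cardiomyocytes, and AAV DNA. All RNA groups share the genotype, the virus serotype and both days, and the labels do not say whether a library came from 1 animal or a pool, so p-values measure the spread between these libraries. The labeled cell type could not be checked against marker genes, because the libraries hold reporter counts only.

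The protein p300 is a histone acetyltransferase that transcription factors recruit to DNA, and its binding is widely used to locate enhancers, the stretches of DNA that raise transcription of a gene at a distance. Atrial and ventricular cardiomyocytes share most of their transcription factors, among them GATA, MEF2, NKX2-5 and TEAD family members, yet keep distinct gene programs. A reporter assay asks whether a sequence taken out of its chromosome can still drive RNA, and whether it does so more in one chamber.

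Every region is 400 bp of the mouse genome (mm10). A region was named after the nearest protein-coding gene, measured between its midpoint and the gene body up to 100 kb, and 207 of the 249 had such a gene. The midpoint was inside a gene body in 127 regions (51.0%), against 49.97% of the whole library. Exon and intron positions were not separated. A further 42 regions (16.9%) had no protein-coding gene within 100 kb, against 10.4% of the library. Noncoding genes were not counted, and regions described below as having no gene are those without a protein-coding one. The 207 regions fell near 199 genes on all 20 chromosomes counted in the library, and 3 lay inside Camta1, a calmodulin-binding transcription activator. Only 2 of the 249 (0.803%) had their midpoint within 1000 bp of an annotated start site, against 3.19% of the library and 4.14% of the 266 regions with the same single tag in another category.

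Those 2 regions are shown because their bases near the start site could be read from RefSeq promoter windows of GRCm38.p6, the same assembly as mm10. The first holds the upstream side of the Sh3tc1 start site, from 250 to 14 bases before it, on the minus strand at chr5:35740001-35740237. The second spans the start site of the noncoding gene Gm45889, from 250 bases before it to 34 after it, on the plus strand at chr7:142282964-142283248. The sources used here do not say in which strand either was cloned.
Sh3tc1 stretch: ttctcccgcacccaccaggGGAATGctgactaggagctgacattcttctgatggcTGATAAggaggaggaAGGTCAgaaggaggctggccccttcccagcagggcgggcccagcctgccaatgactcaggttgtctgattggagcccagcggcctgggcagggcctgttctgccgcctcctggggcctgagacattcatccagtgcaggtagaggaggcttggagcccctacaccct
Gm45889 stretch: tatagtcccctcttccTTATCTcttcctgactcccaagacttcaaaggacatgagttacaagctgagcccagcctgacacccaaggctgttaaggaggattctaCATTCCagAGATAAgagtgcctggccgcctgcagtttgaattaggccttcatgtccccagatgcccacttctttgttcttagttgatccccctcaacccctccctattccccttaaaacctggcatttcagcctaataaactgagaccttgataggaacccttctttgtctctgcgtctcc
Capitals mark exact matches, on either strand, to 6 or more letters bound by heart transcription factors. In the Sh3tc1 stretch of 237 bases (62.0% G and C) they are GGAATG, the letters of TEAD factors, TGATAA, of GATA factors, and AGGTCA, of NR2F and RXR nuclear receptors. These letters stood in 12.1%, 7.69% and 13.4% of 32851 RefSeq promoter windows cut to the same length. The Gm45889 stretch of 285 bases (48.8% G and C) held the GATA letters AGATAA at 2 places, once as TTATCT, and GGAATG once, as CATTCC. At least 1 match of each occurred in 10.8% and 14.1% of windows of that length, and windows with AGATAA at 2 places were not counted. It also held CATCTG once, the HAND letters, which is at the same time its only CANNTG E-box, found in 16.4% and 70.7% of windows and left in lower case. The other letters searched were CTAAAAATA and TATTTATA for MEF2, AGGTGT for TBX5, TNAAGTG for NKX2-5, TCAAGGTCA, which contains AGGTCA, for ERR, and TGACAG for MEIS. A match describes the letters only, and the remaining 247 regions were not searched because no genome sequence was used here.

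Library totals ran from 877773 to 2369985 counts in atrial RNA, from 1271527 to 3781726 in ventricular RNA and from 2312820 to 2958271 in DNA. The RNA libraries of replicate 1 stood apart from the other 8 RNA libraries: 46 of the 249 regions had no count in atrial replicate 1 and 41 in ventricular replicate 1, against 6 to 7 in the other atrial and 2 to 5 in the other ventricular libraries. The DNA libraries had 41 to 48 regions at 0. Values of replicate 1 are therefore given on their own for several of the regions. A count of 0 allows up to 3 counts, which is 0.793 to 3.42 CPM (the count scaled to a common library size) depending on the library. Levels below are CPM after TMM scaling over all 15 libraries, and fold changes are from edgeR's quasi-likelihood test on the 10 libraries compared, with standard errors and with p-values adjusted over all tested regions. Because that fit scales 10 libraries and not 15, its log2 values for RNA over DNA differ slightly from the ratio of the levels.

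The 249 regions together took 5.08 ± 0.212% of the counts in atrial RNA, 4.91 ± 0.257% in ventricular RNA and 9.73 ± 0.149% in AAV DNA (SD, n = 5 libraries each). A single region inside Mttp, which encodes the protein that loads lipid onto apolipoprotein B, made up most of the DNA share. It held 1.23 ± 0.267% of the atrial, 0.887 ± 0.201% of the ventricular and 6.38 ± 0.228% of the DNA counts. Of the 249 regions, 169 averaged 10 or more DNA counts and were tested, as were 2601 regions of the library. The remaining 80 are described at the end, and the values on either side of this limit were 9.4 and 9.6 counts (Btnl9 and Hdac8, not tested) and 10 and 10.4 (Pde4b and Ldlrad4, tested).

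Between the chambers, 26 of the 169 regions were higher in atrial RNA, 20 were higher in ventricular RNA and 123 were not called at an adjusted p under 0.05. That is 15.4% and 11.8%, beside 15.8% and 15.1% of all 2601 tested regions. In all, 27.2% were called in either direction, beside 30.9% of the library, so the share is near the background. The median log2 difference of atrium over ventricle was 0.12, with a range of -1.79 to 2.16, and 0.03 over the library. Of the called regions, 8 had a fitted difference of at least 2-fold toward atrium (background 4.88%) and 6 toward ventricle (3.04%). These calls were made against no change, and a 2-fold difference was not itself tested. In 29 regions no value of one chamber lay within the range of the other, 12 of them higher and 17 lower in atrium, where 22.7% of the library did so. With the libraries scaled on the category Neg, the median of all regions moved up by 0.15 and the split became 39 higher and 14 lower. All 2601 regions then split into 563 higher and 237 lower, so directions here hold relative to the library's bulk. Against a 1.5-fold change in place of no change, 11 of the 46 calls remained. Of all 2601 regions, 95 were then higher and 86 lower. With replicates 2 to 5 only, 24 regions were higher and 16 lower, beside 391 and 328 of all 2601. In bulk libraries such as these, fewer cells that carry a reporter and less of its RNA per cell cannot be told apart.

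The library gave these regions other neighbors to be set beside. Of 182 tested regions with the tag p300AVB in other categories, 44 were higher and 7 lower in atrium (median log2 0.24). Of 123 tested regions tagged GeneAVB in the same category, 23 were higher and 21 lower (median 0.08). Of 469 in the category Neg, 15 were higher and 57 lower (median -0.13). The counts of the 169 regions were the more even of the 2 sets that carry the tag p300AVB. These differences between sets were not tested.

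The largest atrial excess was in a region with no gene within 100 kb, at chr13:35398107-35398506. It had 1701, 1460.5, 1366, 1459.8 and 1511 CPM in the 5 atrial libraries, against 345, 336, 319, 342 and 332 CPM in the ventricular ones. Every atrial value was far above every ventricular one. The log2 difference was 2.16 ± 0.08 (SE, adjusted p = 6.29e-11), which is 4.48-fold, and replicate 1 alone gave 2.3 and replicates 2 to 5 gave 2.12. In the virus DNA the region had 183, 192, 163, 234 and 198 CPM, so RNA was above DNA in atrium (log2 2.88 ± 0.12) and, by less, in ventricle (0.84 ± 0.10).

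A second region without a protein-coding gene nearby, at chr8:88879837-88880236, stood above its DNA in one chamber and below it in the other. Its level was 337, 406, 373, 252 and 294 CPM in atrial RNA, against 95.9, 100.2, 117, 116 and 141 CPM in ventricular RNA. The DNA libraries held 204, 196, 228, 191 and 194 CPM, a narrow band that separates the 2 chambers with no overlap on either side. The chamber difference was 1.54 ± 0.17 on the log2 scale (adjusted p = 3.62e-06), with 0.65 ± 0.13 for atrium over DNA and -0.77 ± 0.12 for ventricle over DNA. These 2 RNA over DNA comparisons share the same 5 DNA libraries.

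Inside Camta1 lie 3 of the regions, and 2 of them, separated by 15298 bp, differed in opposite directions between the chambers. The one at chr4:151179016-151179415 had 307, 190.3, 266, 239 and 211 CPM in atrial RNA, against 106, 128, 112, 152 and 82.7 CPM in ventricular RNA. Its log2 difference was 1.06 ± 0.19 (adjusted p = 0.000425), larger in replicate 1 (1.52) than in replicates 2 to 5 (0.95). The one at chr4:151194714-151195113 had 257, 164, 248, 206 and 151 CPM in atrial RNA, against 524, 381, 372, 343 and 426 CPM in ventricular RNA. Here every ventricular value was above every atrial one, with a log2 difference of -0.995 ± 0.17 (adjusted p = 0.000273) and nearly the same value in replicate 1 (-1.02) and in the others (-1.004). The pair also differed in activity. The first had 158 ± 9.42 CPM in DNA and was modestly above it in atrium (log2 0.56 ± 0.15) and below it in ventricle (-0.38 ± 0.15), a ventricular call that ended without DNA replicate 4 or 5 (adjusted p = 0.0513 and 0.0549) and with scaling by library totals (0.96) or on Neg regions (0.129), and whose sign turned to 0.01 among regions averaging 100 or more DNA counts. The second had only 35.6 ± 5.68 CPM in DNA, and its RNA was above that by 2.47 ± 0.20 in atrium and 3.58 ± 0.15 in ventricle. The third, at chr4:151619512-151619911, lay farther along the gene and was below its DNA in both chambers, as given further on.

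Regions near or inside Lpp, Slc17a6 and Stk32c were also higher in atrial RNA, by 2.15-fold, 1.99-fold and 1.62-fold. A region 26037 bp from the body of Lpp, which encodes a LIM domain protein of cell adhesions, had 108, 126, 137, 174 and 95.1 CPM in atrium, against 46.9, 52.6, 62.9, 88.9 and 45.9 in ventricle (log2 1.10 ± 0.23, adjusted p = 0.00196). Its DNA level was 24.3 ± 8.02 CPM, below every RNA value of both chambers. A region inside Slc17a6, a vesicular glutamate transporter, had 357, 407, 368, 424 and 277 CPM in atrium, against 121, 198, 192, 185 and 219 in ventricle. That difference was 0.996 ± 0.17, and it was 1.56 in replicate 1 and 0.87 in replicates 2 to 5. Its ventricular RNA was not called against DNA (0.11 ± 0.13, adjusted p = 0.473), while its atrial RNA was higher than DNA (0.98 ± 0.12). In Stk32c, a serine/threonine kinase gene, a region had the same arrangement, with 209 ± 42.5 CPM in atrium, 129 ± 12.3 in ventricle and 121 ± 14.9 in DNA. Its chamber difference was 0.70 ± 0.16 (adjusted p = 0.00423).

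In several regions the atrial excess was found among sequences whose RNA was below their DNA in both chambers or in ventricle. The region inside Rapgef4, a cAMP-regulated exchange factor for Rap proteins, had 438, 394, 327, 465 and 408 CPM in atrium, 193, 215, 218, 239.6 and 246 in ventricle and 1195, 1162, 1355, 1160.3 and 1192 in DNA. Its groups followed the order ventricle, atrium, DNA with no overlap, and the chamber difference was 0.87 ± 0.13 (adjusted p = 7.56e-05). Golga2, which encodes a Golgi matrix protein, held a region at 249, 422, 209, 214 and 393 CPM in atrium, against 187, 139, 181, 155 and 157 in ventricle (log2 0.86 ± 0.20). The atrial values of that region fell into a high pair and a low trio, and the lowest of them was just above the highest ventricular one. Its atrial RNA was below DNA (-0.86 ± 0.19, adjusted p = 0.000983), a call that ended with library totals (0.0746) and among regions averaging 100 or more DNA counts (0.051). Iqsec1, an exchange factor for a small GTPase, held one at 358 ± 21.9 CPM in atrium, 233 ± 29.3 in ventricle and 667 ± 35.7 in DNA (chamber difference 0.62 ± 0.12). A region inside Ank, a gene of pyrophosphate transport, had 613 ± 126 CPM in atrium, 369 ± 43.9 in ventricle and 707 ± 60.5 in DNA. Its chamber difference was 0.73 ± 0.13 (adjusted p = 0.000607), with no call of atrium over DNA (-0.26 ± 0.13). A region 73047 bp from Chst2, a carbohydrate sulfotransferase, had 329, 304, 341, 309 and 337 CPM in atrium, against 208, 185, 194, 211 and 187 in ventricle. The lowest atrial value was well above the highest ventricular one, and the difference was 0.72 ± 0.11 (adjusted p = 0.000162).

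Toward the ventricle, the largest difference rested on few counts. The Abcc9 gene, whose product regulates ATP-sensitive potassium channels of muscle, held a region with 6.64, 3.87, 4.11, 2.66 and 9.57 CPM in atrium, against 34.2, 25.97, 10.98, 11.9 and 10.1 in ventricle. The DNA mean was 12.6 counts and all levels were low, and the 2 highest ventricular values were those of replicates 1 and 2. The log2 difference of -1.79 ± 0.52 had an adjusted p of 0.0159, which became 0.0533 without ventricular replicate 1, 0.0507 without ventricular replicate 2 and 0.0554 with replicates 2 to 5 only.

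The next regions toward the ventricle had far more counts behind them. One inside Angpt4, a ligand of the endothelial receptor Tie2, had 557, 869, 909, 992 and 808 CPM in atrium, against 1798, 1907, 2018, 2075 and 1978 in ventricle, and its DNA was at 499.6 ± 42.2 CPM. None of the atrial values reached 1000 CPM and all ventricular values were above it, a log2 difference of -1.24 ± 0.12 (adjusted p = 2.18e-06). RNA over DNA was 0.66 ± 0.12 in atrium and 2.02 ± 0.08 in ventricle, and in atrium it was 0.09 in replicate 1 and 0.86 in replicates 2 to 5. A region with no protein-coding gene within 100 kb, at chr3:133773471-133773870, had 153, 193, 151, 231 and 159 CPM in atrium, against 439, 339.9, 375, 427 and 413 in ventricle. It was above its DNA of 82.2 ± 7.31 CPM in both chambers, and the ventricular libraries exceeded the atrial ones by 2.25-fold (log2 atrium over ventricle -1.17 ± 0.14, adjusted p = 1.32e-05).

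Inside Xpo6, the exportin that carries actin out of the nucleus, a region had 75.9, 70.8, 58.4, 73.3 and 73.2 CPM in atrium, 168, 149, 189, 131 and 148 in ventricle and 81.9, 75.9, 67.9, 64.5 and 64.5 in DNA. Atrial RNA and DNA overlapped, and all ventricular values stood above both (ventricle over DNA 1.20 ± 0.13, adjusted p = 3.57e-07). A region inside Ncoa2, a coactivator of nuclear receptors, had 91.1, 90.7, 100.3, 117 and 88.4 CPM in atrium, 214, 199, 239, 187 and 216 in ventricle and 78.97, 64.6, 82.4, 77.2 and 74.6 in DNA. All its atrial values were above all DNA values, but this was not called (0.30 ± 0.15, adjusted p = 0.0795), and its chamber difference was -1.11 ± 0.15 (adjusted p = 3.51e-05). For the Xpo6 region the chamber difference was -1.16 ± 0.17 (adjusted p = 8.71e-05).

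The region 58404 bp from Zfp536, a zinc finger repressor, had 349, 335, 336, 382 and 385 CPM in atrium, against 724, 731, 639, 709 and 641 in ventricle. Near Slc7a13, an amino acid transporter, a region 7181 bp from the gene had 196, 223, 171, 165 and 178 CPM in atrium, against 361, 397, 349.8, 327 and 363 in ventricle. Both were nearly 2-fold lower in atrium, with log2 differences of -0.95 ± 0.09 and -0.95 ± 0.13, and both were above DNA in each chamber. The Slc7a13 region was the more active, with ventricle over DNA at 2.65 ± 0.10, against 1.48 ± 0.08 for the Zfp536 region.

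Nabp1 encodes a single-stranded DNA binding protein, and a region 3382 bp from it had the second highest level of the set in both chambers. It had 2572, 2929, 3249, 3003 and 3262 CPM in atrium, 5413, 5113, 4892, 4894 and 4815 in ventricle and 3089, 3014, 2642, 2949 and 2866 in DNA. Atrial RNA was not called against DNA (log2 -0.02 ± 0.08, adjusted p = 0.792), ventricular RNA was above it (0.84 ± 0.07), and the chamber difference was -0.74 ± 0.07 (adjusted p = 7.79e-07). Asprv1, a skin protease, had a region 6845 bp away with the same arrangement, at 471 ± 87.03 CPM in atrium, 728 ± 53.5 in ventricle and 465 ± 26.9 in DNA (chamber difference -0.63 ± 0.11). Crtac1, an extracellular matrix protein gene, had one 21697 bp away at 149 ± 28.3 CPM in atrium, 237 ± 48.3 in ventricle and 34.4 ± 5.08 in DNA (-0.67 ± 0.18). The region inside Agxt, a peroxisomal aminotransferase of liver, differed in that ventricular RNA was not called against DNA (0.01 ± 0.08, adjusted p = 0.897) and atrial RNA was below it (-0.83 ± 0.15). Its means were 267 ± 69.8 CPM in atrium, 441 ± 41.8 in ventricle and 454 ± 23.7 in DNA (chamber difference -0.72 ± 0.16). The region in Ilrun lay under its DNA level in each chamber, at 223 ± 37.7 CPM in atrium, 337 ± 37.5 in ventricle and 600.0 ± 66.8 in DNA (-0.60 ± 0.14).

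Another region was called on opposite sides of DNA in the 2 chambers, inside Npffr1, a neuropeptide receptor. It had 1641, 1478, 1439.8, 1725 and 1460.1 CPM in atrium, 2462, 2282, 2111, 2011 and 2066 in ventricle and 1866, 1754, 2222, 1636 and 1797 in DNA. The DNA values overlapped both chambers, although the chambers did not overlap each other (log2 -0.50 ± 0.08, adjusted p = 0.000129). Atrium over DNA was -0.32 ± 0.09 and ventricle over DNA 0.29 ± 0.09. The atrial call ended without DNA replicate 1 or 3 (adjusted p = 0.0561 and 0.0621), and its sign turned to 0.16 with library totals, 0.08 with scaling on Neg regions and 0.10 among regions averaging 100 or more DNA counts. The ventricular call ended with RLE size factors (adjusted p = 0.084), with DESeq2 (0.0784), with no DNA limit (0.578) and with edgeR's own filter (0.324).

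Against the virus DNA, 55 of the 169 regions were higher in atrial RNA and 58 were lower, which is 32.5% and 34.3%, beside 38.4% and 36.3% of the library. In ventricular RNA 60 were higher and 65 lower, 35.5% and 38.5%, beside 43.4% and 37.8% of the library. The background of calls was 74.7% and 81.2% in the 2 comparisons. The median log2 of RNA over DNA was 0.04 in atrium, from -2.72 to 6.20, and 0.08 in ventricle, from -3.08 to 5.85, so the middle region was about as abundant in RNA as in DNA on the TMM scale. Library medians were 0.04 and 0.13. Of the called regions, 35 were fitted at least 2-fold above and 32 below DNA in atrium (background 28.1% and 20.9%). In ventricle 43 were above and 37 below (31.6% and 21.5%), and these calls too were made against no change. RNA and DNA values did not overlap in 89 regions for atrium, where 60.9% of the library did so, and in 107 for ventricle (70.1%). Under scaling by library totals the median of all regions moved up by 0.48 and 0.37. The splits then became 78 higher against 34 lower for atrium and 81 against 53 for ventricle. Over all 2601 regions they were 1312 against 600 and 1371 against 732. Scaled on the Neg regions, the median of all regions moved up by 0.40 and 0.13. Of the 169 regions, 78 were then higher and 42 lower in atrium, beside 1264 and 644 of all regions. With replicates 2 to 5 only, 55 were above and 56 below DNA for atrium, and 59 and 65 for ventricle. Among all regions it was 1001 and 865 for atrium, and 1094 and 972 for ventricle. Both comparisons use the same 5 DNA libraries.

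The side on which a region fell moved with its amount in the virus. Of 65 regions with a mean DNA count from 10 to below 100, 34 were above and 3 below DNA for atrium, and 37 and 3 for ventricle. Of 26 regions with 1000 DNA counts or more, 1 was above and 21 below DNA for atrium, and 4 and 19 for ventricle. In the bins between, the counts in atrium were 9 higher and 8 lower of 31 regions from 100 to below 300, and 11 and 26 of 47 from 300 to below 1000. The whole library followed the same course, from 531 higher and 72 lower of 854 regions in the lowest bin to 59 and 388 of 489 in the highest for atrium over DNA. The DNA count is also the denominator of these ratios, and its part in the calls was not tested.

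Highest over DNA, among regions whose RNA and DNA values did not overlap, was one with no gene within 100 kb, at chr3:70250722-70251121. It had 321, 251, 348, 326 and 244 CPM in atrium, 223, 200.1, 191, 231 and 191 in ventricle and 6.33, 6.82, 6.13, 7.85 and 5.30 in DNA. RNA exceeded DNA by 43.4-fold in atrium (log2 5.44 ± 0.19, adjusted p = 2.07e-11) and 32.9-fold in ventricle (5.04 ± 0.16), while its mean DNA count was 14.6. All atrial values were also above all ventricular ones, by 0.52 ± 0.14 (adjusted p = 0.00874).

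A region 33664 bp from Ccdc130 had similar levels in both chambers. Its values were 214, 195, 208, 269 and 171 CPM in atrium, 211, 218, 187, 229 and 209 in ventricle and 8.57, 6.37, 7.80, 12.6 and 8.83 in DNA. RNA was above DNA by 4.50 ± 0.22 and 4.62 ± 0.17 in atrium and ventricle, and the chamber difference was 0.00 ± 0.14 (adjusted p = 0.999). Inside Clrn1, a gene needed for hearing and sight, a region had 237, 205, 189.6, 193 and 207 CPM in atrium, 245, 297, 313, 273 and 241 in ventricle and 15.3, 18.2, 13.4, 22.7 and 17.7 in DNA. Its RNA over DNA was 3.49 ± 0.19 in atrium and 4.02 ± 0.16 in ventricle. The chambers differed by -0.41 ± 0.13 (adjusted p = 0.0253), a call that ended without ventricular replicate 2 or 3 (adjusted p = 0.066 and 0.0689) and with scaling on Neg regions (0.172).

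The region inside Grin2a, an NMDA receptor subunit, had 269, 239, 155, 359.6 and 470.0 CPM in atrium, 119, 156, 124, 127 and 163 in ventricle and 19.7, 27.3, 23.4, 30.5 and 26.5 in DNA. Every RNA value was above every DNA value, but the atrial libraries ranged widely and 1 of them fell within the ventricular range. Atrium over DNA was 3.48 ± 0.28 and ventricle over DNA 2.49 ± 0.16, and the chamber difference of 1.11 ± 0.24 was called (adjusted p = 0.00275) despite the overlap. Inside Foxp1, a forkhead transcription factor gene expressed in developing heart, a region had 277, 277, 327, 295 and 243 CPM in atrium, 259, 229.7, 236, 236 and 319 in ventricle and 32.03, 36.4, 35.6, 47.97 and 41.1 in DNA. It was above DNA by 6.996-fold in atrium and 6.87-fold in ventricle, and the chamber difference was 0.15 ± 0.13 (adjusted p = 0.45).

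Less DNA lay behind a region inside Ppp1r9a, a scaffold gene of protein phosphatase, which had 22.1 ± 4.65 CPM in atrium, 36.9 ± 10.2 in ventricle and 4.68 ± 1.78 in DNA, from a mean DNA count of 10.6 (ventricle over DNA 3.01 ± 0.31).

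The largest fitted value of the set belonged to a region whose replicates differed, inside Prex1, an exchange factor for Rac, and it was picked out after its values were seen. It had 1, 1127, 2204, 1999 and 1629 counts in the 5 atrial libraries, 9, 1259, 2413, 2448 and 2114 in the ventricular ones and 21, 18, 16, 21 and 20 in DNA. In replicate 1 the RNA of both chambers was no higher than the DNA, and in replicates 2 to 5 it was far above it. Atrium over DNA was 6.20 ± 1.09 over all libraries (adjusted p = 0.000727), -2.18 in replicate 1 and 6.40 in the others. For ventricle over DNA the values were 5.85 ± 1.004, -0.33 and 5.90. Over all 169 regions, replicate 1 had the same sign as replicates 2 to 5 in 142 for atrium over DNA, 144 for ventricle over DNA and 120 for atrium over ventricle. Among called regions it was 108 of 113, 120 of 125 and 44 of 46. The calls came from fits that include replicate 1, so this selection itself favors the same sign.

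At the other end, the Mttp region had the most virus DNA of the set and the most RNA, and still lay lowest against DNA. Its values were 14139, 11396, 9997, 10589 and 11375 CPM in atrium, 10553, 7017, 7476, 7908 and 8336 in ventricle and 66436, 71941, 85098, 66045 and 73903 in DNA. RNA was 6.57-fold below DNA in atrium (log2 -2.72 ± 0.11, adjusted p = 8.63e-11) and 8.48-fold below in ventricle (-3.08 ± 0.12). The chambers overlapped, with a called difference of 0.48 ± 0.12 (adjusted p = 0.011). A setting added after the data were seen left out the region with the most virus DNA of the whole library, averaging 310912 counts. That was not the Mttp region, which averaged 161638 counts and stayed in these fits. The counts of calls remained at 26 and 20, 55 and 58, and 60 and 65, and fits without the Mttp region were not run.

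Fntb encodes the beta subunit of protein farnesyltransferase, and a region inside it had 221, 188, 194, 237 and 386 CPM in atrium, 184, 157, 193, 202 and 203 in ventricle and 1444, 1393, 1663, 1379 and 1522 in DNA. RNA was far below DNA in all 10 RNA libraries, with log2 values of -2.66 ± 0.17 in atrium and -2.92 ± 0.09 in ventricle, and the chambers were not called apart (adjusted p = 0.145). The third Camta1 region had 109, 159.9, 95.8, 89.7 and 117 CPM in atrium, 109, 69.9, 84.8, 64.3 and 65.1 in ventricle and 424, 356, 416, 368 and 378 in DNA. Atrium over DNA was -1.83 ± 0.15 and ventricle over DNA -2.26 ± 0.14, so the 3 regions of this gene spanned 2.47 to -1.83 in atrium and 3.58 to -2.26 in ventricle.

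Among the other low regions was one inside Fto, an RNA demethylase gene, with 90.7 ± 57.4 CPM in atrium, 101 ± 13.3 in ventricle and 338 ± 31.4 in DNA. Its atrial replicate 3 had 187 CPM, more than any ventricular library, and the other atrial libraries had 43.1 to 88.4 CPM. The region inside Ago2, the slicing Argonaute, had 564 ± 88.4 CPM in atrium, 608 ± 80.6 in ventricle and 1893 ± 281 in DNA (atrium over DNA -1.80 ± 0.13). Inside Psd3, an exchange factor gene for ARF, a region of low counts had 6.72 ± 2.88 CPM in atrium, 4.27 ± 2.53 in ventricle and 19.9 ± 3.61 in DNA (ventricle over DNA -2.19 ± 0.38). None of these 3 was called between the chambers.

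High RNA levels were found above, at and below the DNA level. Among tested regions, the 6 highest levels in atrium belonged to the regions of Mttp, Nabp1 and Npffr1, the region at chr13:35398107-35398506, and those of Angpt4 and Plet1. The untested region at the Gm45889 start site, described further on, averaged 833 CPM in atrium, more than the Angpt4 and Plet1 regions (827 and 707 CPM). The Plet1 region, 53635 bp from the gene, had 711, 772, 633, 664 and 756 CPM in atrium, 723, 721, 729, 664 and 666 in ventricle and 654, 634, 731, 563 and 666 in DNA. All 3 groups overlapped, with log2 values of 0.06 ± 0.09 and 0.16 ± 0.08 against DNA and 0.01 ± 0.09 between chambers. In ventricle the Sh3tc1 and R3hdm2 regions were also among the top 6 of the tested regions. The Sh3tc1 region, whose bases upstream of the start site are printed above, had 702, 676, 651, 761 and 519 CPM in atrium, 786, 739, 821, 782 and 727 in ventricle and 1684, 1609, 1905, 1494 and 1659 in DNA. It was below DNA by 2.63-fold in atrium and 2.08-fold in ventricle (log2 -1.40 ± 0.10 and -1.06 ± 0.08), and not called between the chambers (-0.22 ± 0.10, adjusted p = 0.105). The region inside R3hdm2 was above DNA in both, with 581 ± 37.2 CPM in atrium, 747 ± 46.03 in ventricle and 339 ± 13.2 in DNA. Its chamber difference was -0.36 ± 0.08 (adjusted p = 0.00356, and 0.0821 with scaling on Neg regions).

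The regions with least DNA among those tested were measured with wide errors. Near Pde4b, a cAMP phosphodiesterase, a region 32777 bp away was called in ventricle over DNA (2.22 ± 0.40) and not in atrium (1.18 ± 0.58, adjusted p = 0.0781), where it was 3.005 in replicate 1 and 0.58 in replicates 2 to 5. Inside Exoc6, a subunit of the exocyst, a region was at 4.55 ± 5.50 CPM in atrium, 4.09 ± 3.21 in ventricle and 4.64 ± 2.79 in DNA, with standard errors of 0.57 to 0.80 on its log2 values. The region inside Ldlrad4 had no count in either replicate 1 RNA library, 0 to 32.9 CPM over the atrial and 0 to 27.4 over the ventricular libraries and 2.73 to 7.51 in DNA. Its call of atrium over DNA (log2 1.68 ± 0.63, adjusted p = 0.0267) ended with no DNA limit (0.0924), with the block on replicate number (0.105) and with a model term for replicate 1 (0.0508). It also ended against a 1.5-fold change (0.0582), and without atrial replicate 2 (0.0551) or 3 (0.0897) or DNA replicate 2 (0.0532) or 4 (0.0563). The call of ventricle over DNA for this region (1.78 ± 0.60, adjusted p = 0.0133) ended with no DNA limit (0.0895).

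By position relative to genes, the calls split as follows. Of 92 tested regions inside a gene body, 12 were higher and 12 lower in atrium than in ventricle (median log2 0.14). Of 54 outside but within 100 kb of a gene it was 9 and 7 (0.02), and of 23 without a gene it was 5 and 1 (0.24). The 23 had a median RNA over DNA of 0.53 in atrium and 0.48 in ventricle, against 0.03 and 0.04 for the 92 inside genes. Over all 2601 tested regions, in any position, 15.8% were higher and 15.1% lower in atrium, and shares by position in the library were not computed. RNA over DNA also moved with the DNA count, as given above, and the DNA counts of these 3 sets were not compared. The differences between positions were not tested.

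Few of the regions lay nearest to known heart genes. Among 9 lists with 211 distinct genes in all, covering atrial and ventricular genes, cardiac transcription factors, sarcomere, ion channel, metabolic, endothelial, fibroblast and immune genes, 3 of the 249 regions (1.20%) had a listed gene as the nearest. In the whole library it was 163 of 3820 (4.27%), in the 165 GeneAVB regions of the same category 7 (4.24%), in the 266 regions with the same single tag in another category 6 (2.26%), and in the category Neg 14 of 848 (1.65%). No region lay nearest to a gene of the atrial, sarcomere, metabolic, endothelial, fibroblast or immune lists. The ion channel list gave the Abcc9 region described above. The cardiac transcription factor list gave 1 region, inside Klf15, a Krüppel-like factor of heart metabolism, which had 47.5, 29.9, 16.04, 14.7 and 57.4 CPM in atrium, 22.8, 21.6, 16.5, 25.4 and 20.1 in ventricle and 94.98, 93.2, 112, 91.1 and 97.2 in DNA. It was below DNA in both chambers (-1.64 ± 0.34 and -2.14 ± 0.16) and not called between them (0.62 ± 0.39, adjusted p = 0.263), and the atrial values spanned the ventricular ones. The chamber value was 1.03 in replicate 1 and 0.28 in replicates 2 to 5. The ventricular list gave an untested region 12343 bp from Xdh, xanthine dehydrogenase, with 18, 20, 76, 11 and 30 counts in atrium, 12, 21, 29, 27 and 5 in ventricle and 3, 6, 2, 9 and 8 in DNA.

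Of the 80 regions under the DNA limit, 31 had no count in any DNA library, which is 12.4% of the 249 and close to the 12.8% of the library. Yet 29 of those 31 had more than 3 counts in at least 1 RNA library, and none of them had more than 3 in a replicate 1 RNA library. Summed over the 31, atrial RNA held 4 counts in replicate 1 and 1775 to 2915 in each of the others. Ventricular RNA held 5 counts in replicate 1 and 2949 to 4256 in each of the others. A like pattern was seen across the library, where 22 of the 488 regions without DNA had more than 3 counts in a replicate 1 RNA library, and where these 488 summed to 173 counts in atrial replicate 1 and 57342 to 91412 in the other atrial libraries. No fold of RNA over DNA is given for any of these regions, and how they came to have RNA without DNA was not tested.

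The 5 untested regions with the highest RNA show this most plainly. Inside Rbfox3, a neuronal splicing factor gene, a region had 0, 977, 2523, 1721 and 1596 counts in atrium, 0, 2196, 2484, 2869 and 2856 in ventricle and 0, 0, 1, 1 and 1 in DNA. The region at the Gm45889 start site, whose bases are printed above and whose nearest protein-coding gene is Gm10013 at 2109 bp, had 0, 1710, 2792, 2415 and 1774 counts in atrium, 0, 1202, 1423, 1630 and 1379 in ventricle and 1, 0, 0, 0 and 0 in DNA. Both had 0 counts in replicate 1 RNA of each chamber and were abundant in every other RNA library. Inside Ptk7, a pseudokinase receptor gene, a region had 0, 925, 962, 1494 and 899 counts in atrium, 1, 1088, 1402, 1643 and 1114 in ventricle and 8, 6, 13, 8 and 11 in DNA, so here DNA was present at a low level in all 5 libraries. Inside Dcaf5 the counts were 0, 378, 721, 840 and 629 in atrium and 0, 872, 1559, 1134 and 1136 in ventricle, with 0 in every DNA library. Inside Rras2, a Ras-related GTPase gene, they were 1, 341, 542, 377 and 373 in atrium, 12, 1007, 1236, 1184 and 939 in ventricle and 1, 1, 1, 0 and 0 in DNA. Replicate 1 was thus at or near 0 in all 5 regions.

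When no DNA limit was set, 3812 regions could be fitted between the chambers and 18.9% were called. Of the 80 regions, 1 was then higher and 3 were lower in atrium, and these 4 were picked out after their values were seen. The higher one lay 1217 bp from Tyms, the thymidylate synthase gene, with 161, 182, 294, 277 and 156 counts in atrium, 21, 82, 75, 124 and 62 in ventricle and 6, 7, 6, 10 and 12 in DNA. Replicate 1 took part like the others here, and the log2 difference was 2.42 ± 0.26 (adjusted p = 0.000147). Toward the ventricle, a region 12289 bp from Inpp1, an inositol phosphatase gene, had 5, 17, 37, 30 and 9 counts in atrium and 86, 149, 215, 207 and 146 in ventricle (log2 -2.39 ± 0.36, adjusted p = 0.00128). A region without a nearby gene at chr3:156208516-156208915 had 5, 17, 12, 16 and 12 counts in atrium, against 32, 80, 95, 54 and 96 in ventricle (-1.77 ± 0.34, adjusted p = 0.00495). A region 22466 bp from Itgb1, the beta-1 integrin gene, had 8, 13, 24, 5 and 3 counts in atrium, against 27, 56, 59, 88 and 55 in ventricle (-1.63 ± 0.49, adjusted p = 0.0436). In all 4 the DNA counts summed to between 17 and 44 over the 5 libraries.

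Few of the regions were close neighbors. No 2 of the 249 regions lay within 1 kb of each other, and the closest pair, near Sag, was 1428 bp apart with log2 chamber values of -0.51 and 0.62, neither of them called. The 2 regions near Fntb, 14602 bp apart, had chamber values of -0.01 and 0.38, also without a call. Of these 2 pairs and the Camta1 pair, the Camta1 pair alone held calls between chambers, 1 in each direction.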

How the data were processed

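Reporter RNA of atria and ventricles and the DNA of the virus pool were counted in 5 libraries each. RNA was taken with Trizol and virus DNA with proteinase K, and a UMI primer was used to copy them before PCR, per the labels' protocols. The submitters' processing notes list mm10 as the build, Bowtie2 2.3.4.3 and cutadapt 2.5. Each deposited value is a raw count for a region, a whole number to which the authors applied no scaling. The sources used here do not say whether UMIs were collapsed. Zero-count limits of 3 counts therefore cover counting error only. The categories came from a deposited table of the series, whose counts differed from the libraries' own files at 0 values.

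Groups and replicate numbers came from the labels. Members and gene lists were chosen with earlier results of these data known. Each comparison was fitted with edgeR 4.0.16 in R 4.3.3 (quasi-likelihood, robust, TMM factors) on its 10 libraries over the 2601 regions averaging 10 or more DNA counts, with Benjamini-Hochberg adjustment over all of them and calls at an adjusted p under 0.05. Standard errors came from the log2 fold change and its F statistic. DESeq2 1.42.0 was an alternative. The fits were also run on simulated counts that held no shift of replicate 1, and the outcome is not used here. No set was tested, and levels are CPM with TMM factors over 15 libraries. Same-numbered atrial and ventricular libraries deviated together over all regions (r = 0.82 for replicate 1 and 0.22 to 0.24 for the others). Every pair was over the criterion of 0.1, but atrial replicates 3, 4 and 5 had a higher r with a ventricular library of another number (0.227, 0.246 and 0.269). Passing the criterion therefore does not show that the numbers pair the chambers. The main fits held no term for replicate number, so their p-values treat the chambers as unpaired. Blocking on replicate number was an alternative and changed no count of calls by 1.5 times.

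No 2 replicate libraries matched within sampling noise, with a lowest chi-square per degree of freedom of 17.7 in atrium, 12.7 in ventricle and 1.79 in DNA. Named regions were, between chambers, up to 14 per direction with the largest called differences and no overlap, and for RNA over DNA, likewise, the 8 highest and 5 lowest. They also include up to 4 per gene list, the 6 highest RNA levels per chamber among tested regions, the 4 highest and 4 lowest DNA levels, regions called on opposite sides of DNA, and the 5 untested regions with most RNA. Of the regions this rule gives, 2 are not reported here. Genes and start sites came from RefSeq GRCm38.p6, and the start sites were an incomplete list with none on chromosome 18. The alternatives were other scalings, DNA limits, tools and blocks and leaving out libraries, and their effect is given in the closing section. Motifs were planned for all regions but searched only in the printed stretches, as no genome was used here.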

Additional observations from a re-analysis of the deposited data

Results flagged for a closer look

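Among 132 groups of 5 values of the named regions reported here, 8 held 1 library far from the other 4, judged by its gap to the nearest value as a share of the whole range (limit 0.71). Chance gives about 1 such group in 20. In atrial RNA these were the Asprv1 region (gap 0.762, replicate 4 at 622 CPM against 409 to 459.8 CPM), the Fntb region (0.752, replicate 5 at 386 against 188 to 237) and the Ago2 region (0.757, replicate 1 at 718 against 494 to 548). In ventricular RNA it was the Ilrun region (0.720, replicate 4 at 402 against 306 to 333). In DNA they were the regions of Rapgef4 (0.824, replicate 3 at 1355 against 1160.3 to 1195), Asprv1 (0.756, replicate 3 at 512 against 443 to 460.0), Klf15 (0.718, replicate 3 at 112 against 91.1 to 97.2) and Exoc6 (0.861, replicate 4 at 9.59 against 2.98 to 3.90). The share of the library held by all 249 regions was also apart in 1 ventricular library (gap 0.813): replicate 1 had 5.36%, and the other 4 had 4.73% to 4.85%.

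Regions called on opposite sides of DNA in the 2 chambers were those at chr8:88879837-88880236, inside Camta1 and inside Npffr1. Their own chamber differences, log2 of atrium over ventricle, were 1.54, 1.06 and -0.50, each called in the fit between chambers (adjusted p = 3.62e-06, 0.000425 and 0.000129).

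RNA was counted for 29 regions that had 0 counts in all 5 DNA libraries, with more than 3 counts in at least 1 RNA library each, all in replicates 2 to 5.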

How the results depend on the processing

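The counts of called regions between chambers (26 higher and 20 lower in atrium, median log2 0.12) became 4 and 7 against a 1.5-fold change, and the median became 0.27 with scaling on Neg regions, where the median of all regions moved by 0.15. For atrium over DNA (55 and 58, median 0.04), 34 were lower with library totals, 108 were higher among 248 regions without a DNA limit, and 35 were higher against a 1.5-fold change. Its median was 0.51 with library totals, 0.44 with scaling on Neg regions, 0.55 without a DNA limit, -0.10 among the 104 regions averaging 100 or more DNA counts and 0.0916 with replicates 2 to 5 only. For ventricle over DNA (60 and 65, median 0.08), 117 were higher without a DNA limit and 38 among those averaging 100 or more DNA counts. Its median was 0.44 with library totals, -0.0202 with RLE size factors, 0.20 with scaling on Neg regions, -0.0198 with DESeq2, 0.61 without a DNA limit, -0.29 with the higher limit and -0.00492 with filterByExpr. Over all regions of the library, 95 were higher and 86 lower between chambers against a 1.5-fold change. For atrium over DNA, 600 of them were lower with library totals, 1930 higher without a DNA limit and 774 higher against a 1.5-fold change. For ventricle over DNA, 2051 were higher without a DNA limit and 741 with the higher limit. More or fewer regions entered under other DNA limits, and for the other settings the cause was not tested. Leaving out 1 library at a time gave 20 to 27 higher, 15 to 24 lower and a median of 0.08 to 0.15 between chambers, 51 to 57, 53 to 62 and -0.0144 to 0.12 for atrium over DNA, and 55 to 61, 63 to 67 and -0.0278 to 0.12 for ventricle over DNA. Signs turned for the Npffr1 region in atrium over DNA (0.16 with library totals, 0.0795 with scaling on Neg regions, 0.10 with a DNA mean of 100 or more) and for the Camta1 region at chr4:151179016-151179415 in ventricle over DNA (0.00918 with that limit). With the replicate block the counts were 26 higher and 22 lower between chambers, 48 and 60 for atrium over DNA and 57 and 66 for ventricle over DNA. RNA and DNA libraries of 1 number share only that number (correlations of deviations -0.02 to 0.04 in atrium and -0.03 to 0.06 in ventricle). The block ended 1 call among the named regions, Ldlrad4 in atrium over DNA. With a limit of 50 kb in place of 100 kb, 186 of the 249 regions had a gene. The search for motifs in the whole or the central part of each region was not run. Depth limits the regions with few DNA counts most, and regions under the limit entered RNA over DNA only in the settings with no DNA limit or with filterByExpr.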

Other observations

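Of the calls between chambers, 14 higher and 3 lower in atrium were made on values that overlapped between the groups, and those named here were chosen after their values were seen and were not run under the alternatives. The largest was 11508 bp from AA467197, at 277, 319, 183, 216 and 560.1 CPM in atrium and 196, 142, 86.8, 120.2 and 120.1 CPM in ventricle (log2 1.23 ± 0.30, adjusted p = 0.00785). A region without a nearby protein-coding gene at chr9:116468964-116469363 had 113, 178, 64.98, 43.5 and 105 CPM in atrium and 34.2, 58.6, 48.05, 43.7 and 37.7 CPM in ventricle (1.17 ± 0.32, adjusted p = 0.0121). Toward the ventricle, a region 29869 bp from Exoc6 had 8.54, 30.4, 15.6, 15.98 and 18.01 CPM in atrium and 42.9, 50.6, 29.9, 32.01 and 34.3 CPM in ventricle (-1.08 ± 0.34, adjusted p = 0.0237). A region inside Prkce, a protein kinase C gene, had 219, 183, 235, 284 and 217 CPM in atrium and 355, 283, 261, 289 and 318 CPM in ventricle (-0.40 ± 0.14, adjusted p = 0.0384).

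Both regions near Prdm11, a gene of the PRDM zinc finger family, were below DNA in each chamber. The one inside the gene had -1.71 ± 0.20 in atrium and -1.40 ± 0.17 in ventricle, and the one 51789 bp away had -0.93 ± 0.20 and -1.19 ± 0.13. Both regions inside Sag, the arrestin gene of the retina, were above DNA, with 0.93 ± 0.36 in atrium and 0.44 ± 0.18 in ventricle for one and 1.76 ± 0.35 and 2.41 ± 0.23 for the other.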
